A study of Mus musculus with 8 samples.

Results

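Zfp57, Trim28, Mbd1 and Mbd2 are 4 genes whose proteins act at methylated DNA, and all 4 were found, by Ensembl ID and mm10 symbol, among the 21517 genes listed in these data. They were picked by symbol, with earlier results of these data known, and each passed the filter on low values in both tables. The study measured polyadenylated RNA in mouse preimplantation embryos with knockdown of Smarca5 (Snf2h), the ISWI-family ATPase that slides nucleosomes, in 8 libraries. The groups were Smarca5 knockdown (KD) morulae, KD blastocysts, NC morulae and NC blastocysts, NC being taken here as the control, with 2 libraries each and a pool of 20 embryos per library. How the knockdown was made, what NC stands for, the strain, and which stage was taken on embryonic day 3.75 or 4.25 are not given in the sources used here. In such pools, fewer cells of a type and less RNA per cell cannot be told apart.

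After fertilization most DNA methylation of the gametes is lost, while imprinting control regions keep theirs on the maternal or the paternal copy. ZFP57 is a KRAB zinc finger protein that binds the methylated hexamer TGCCGC within these regions. It recruits TRIM28 (KAP1), a scaffold that brings the H3K9 methyltransferase SETDB1, HP1 proteins and DNA methyltransferases, and so protects imprints. TRIM28 also serves many other KRAB zinc finger proteins and silences retrotransposons. MBD1 and MBD2 read methylated CpG: MBD1 works with SETDB1 and its cofactor ATF7IP, and MBD2 with the histone deacetylase complex NuRD.

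In mm10, Zfp57 (ENSMUSG00000036036) lies on chromosome 17 from 37001163 to 37010635 and Trim28 (ENSMUSG00000005566) on chromosome 7 from 12999114 to 13031035. These and the genes of both MBD proteins, whose places are given with their values, are protein-coding and on the plus strand. The annotated span of Trim28 contains Zbtb45 on the other strand, with 0 shared exonic bases, and the other members overlap no annotated gene.

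Start-site windows of the 2 imprint protectors are shown because their CpG content differs, and CpG is the letter pair that carries DNA methylation. Each window holds 250 bases before and 50 after a start in RefSeq (GRCm38.p6), 300 bases in all, with CpG in capitals. The Zfp57 window at the annotated gene start (chr17:37000913-37001212, plus strand) had 6 CpG, more than 43.6% of all 32851 windows, and the other 2 Zfp57 windows had 9 and 4. The Trim28 window (chr7:13023902-13024201, plus strand) had 23 CpG, more than 78.5% of windows. It lies inside the annotated span of Trim28, not at the start of that span (12999114), and Zbtb45 lies between the 2.
Zfp57: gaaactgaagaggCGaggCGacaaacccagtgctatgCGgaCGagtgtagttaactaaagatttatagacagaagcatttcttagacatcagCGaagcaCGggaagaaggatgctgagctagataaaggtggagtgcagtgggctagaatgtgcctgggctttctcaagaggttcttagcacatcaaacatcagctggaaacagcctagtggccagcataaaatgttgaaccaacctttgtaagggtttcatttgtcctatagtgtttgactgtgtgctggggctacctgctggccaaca
Trim28: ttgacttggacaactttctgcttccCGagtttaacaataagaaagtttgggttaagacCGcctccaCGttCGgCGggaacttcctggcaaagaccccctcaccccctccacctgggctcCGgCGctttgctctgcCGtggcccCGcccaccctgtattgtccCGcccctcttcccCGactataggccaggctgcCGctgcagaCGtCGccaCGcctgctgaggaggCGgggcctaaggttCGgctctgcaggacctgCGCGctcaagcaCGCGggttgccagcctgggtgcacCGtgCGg

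The hexamer that ZFP57 reads was also counted in the windows of the imprinted genes listed further on. TGCCGC or its reverse complement GCGGCA, each strand counted separately, stood in 13 of 48 windows of 32 imprinted genes (27.1%) and in 3813 of all 32851 windows (11.6%). The hexamer itself contains a CpG, and the windows differ in CpG, with a median of 15 in the imprinted and 7 in all windows. Overlapping windows of a gene were counted separately, as for 2 of Mest among the 13. It was in 1 place in the Trim28 window and in none of the 3 Zfp57 windows. Plagl1 and Zdbf2 are shown because their RNA is described with the imprinted genes and each has a window with the hexamer, here in capitals. The windows follow start sites, were not chosen to cover imprinting control regions, and exist for 32 of the 38 listed imprinted genes. The letters carry no methylation state, and a match is not a binding site.
Plagl1 (chr10:13090582-13090881, plus strand): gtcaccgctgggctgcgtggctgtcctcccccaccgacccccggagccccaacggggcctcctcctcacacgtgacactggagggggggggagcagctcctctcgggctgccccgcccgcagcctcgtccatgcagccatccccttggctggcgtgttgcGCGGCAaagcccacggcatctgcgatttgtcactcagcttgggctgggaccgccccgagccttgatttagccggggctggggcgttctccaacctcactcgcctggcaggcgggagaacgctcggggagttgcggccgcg
Zdbf2 (chr1:63200108-63200407, plus strand): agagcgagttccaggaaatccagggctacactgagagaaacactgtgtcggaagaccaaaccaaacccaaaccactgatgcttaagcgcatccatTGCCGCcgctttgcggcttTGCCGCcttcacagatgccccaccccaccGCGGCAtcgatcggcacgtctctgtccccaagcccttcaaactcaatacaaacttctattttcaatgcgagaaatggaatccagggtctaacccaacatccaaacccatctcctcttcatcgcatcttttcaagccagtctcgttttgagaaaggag

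Morula libraries shared 1 table of 19485 genes and blastocyst libraries another of 20348, in a normalized abundance scaled within each. Depth is given as reads or read pairs assigned to the listed genes, recovered from the spacing of the lowest values. It was 16177238 to 17856819 in KD morulae and 18486998 to 22030598 in KD blastocysts. It was 17229321 to 18568761 in NC morulae and 13958294 to 23304921 in NC blastocysts. Smarca5 was 501 and 470 in KD morulae against 9678 and 9760 in NC morulae, and 906 and 855 in KD blastocysts against 7000 and 8283 in NC blastocysts. It fell at each stage (log2 fold change -4.32 and -3.11, limma adjusted p = 1.88e-04 and 5.93e-04). All 10 embryo markers were expressed above the filter at each stage, among them Pou5f1, Cdx2 and Krt8. Of the 12 markers of cumulus, granulosa and stromal cells, Cyp19a1, Fshr, Ptx3, Has2 and Dcn were in neither table, and the summed level of those listed was 471 to 518 in KD and 364 to 511 in NC morulae. In blastocysts that sum was 253 to 462 in KD and 326 to 391 in NC. Groups did not overlap for 4 of the 6 listed in morulae, with Foxl2, Amh and Inhba higher and Amhr2 lower in KD. The same held for 1 of the 7 in blastocysts, Foxl2, again higher. Of all tested genes, 20.7% in morulae and 24.6% in blastocysts were higher in KD without overlap. Those lower without overlap made up 21.2% and 24.9%. Amh (6.74 and 8.72 in KD, 1.85 and 1.03 in NC) and Inhba (1.92 and 3.25 in KD, 0.93 and 0 in NC) were below the filter in morulae. Foxl2 was 109 and 77.1 in KD and 38.9 and 28.9 in NC morulae, and 63.9 and 42.6 in KD and 16.3 and 25.1 in NC blastocysts. Amhr2 was 204 and 243 in KD and 279 and 325 in NC morulae, and 101 and 72.5 in KD and 158 and 85.1 in NC blastocysts. Of 6 blood markers 4 were listed in morulae and 5 in blastocysts, with sums of 551 to 1054 in KD and 620 to 1058 in NC morulae, and 707 to 979 in KD and 432 to 899 in NC blastocysts. Cd68 gave most of each sum, and the globin Hbb-bs was 0 and 40.0 in KD and 0 and 82.9 in NC blastocysts. Ptprc and Lyz2 were higher without overlap in KD blastocysts, at 5.20 or less in every library. Of 7 oviduct and uterine markers 5 were listed, and nearly all of their sum was Epcam, which the embryo also expresses. That sum was 5305 to 7393 in KD and 4361 to 7113 in NC morulae, and 20687 to 24212 in KD and 19714 to 19946 in NC blastocysts. Muc1 of that list was 34.5 and 21.6 in KD and 4.24 and 5.52 in NC morulae, and 35.6 and 74.1 in KD and 34.9 and 17.7 in NC blastocysts. Pgr was likewise higher without overlap at each stage, at 14.7 or less in every library, as was Epcam in blastocysts. The part of such cells in the results below was not tested.

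Zfp57, the zinc finger protein that finds the imprints, had the largest difference of the 4 genes in blastocysts. Its normalized abundance was 965 and 1085 in KD blastocysts, against 1577 and 1782 in NC blastocysts. The highest KD library lay well below the lowest NC library. The mean was 1025 ± 84.3 in KD and 1679 ± 145 in NC (SD, n = 2), a KD level 0.610 times that of NC. The log2 fold change was -0.71 (SE 0.13, 95% interval -1.01 to -0.41), which did not pass over all genes (limma adjusted p = 0.0917, unadjusted p = 9.48e-04). Of the 13651 genes tested in blastocysts, 1.03% had a smaller p. With each library left out in turn the log2 fold change stayed between -0.80 and -0.62.

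Zfp57 in morulae gave no such separation. It was 422 and 342 in KD morulae, against 417 and 272 in NC morulae, so the groups overlapped. On the log2 scale the change was 0.17 (SE 0.27, 95% interval -0.49 to 0.83, limma adjusted p = 0.873). It was 0.48 without NC replicate 1, -0.14 without NC replicate 2, 0.32 without KD replicate 2 and 0.02 without KD replicate 1, so its direction depended on single libraries. The change in blastocysts minus that in morulae was -0.88 (SE 0.31, 95% interval -1.59 to -0.18). It did not pass over the 12875 genes tested in both tables (limma adjusted p = 0.905, unadjusted p = 0.0196), where 0.0% passed and 5.34% had an unadjusted p under 0.05. It was -0.58 without NC morula replicate 2 and -1.19 without NC morula replicate 1.

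**Figure D1:**
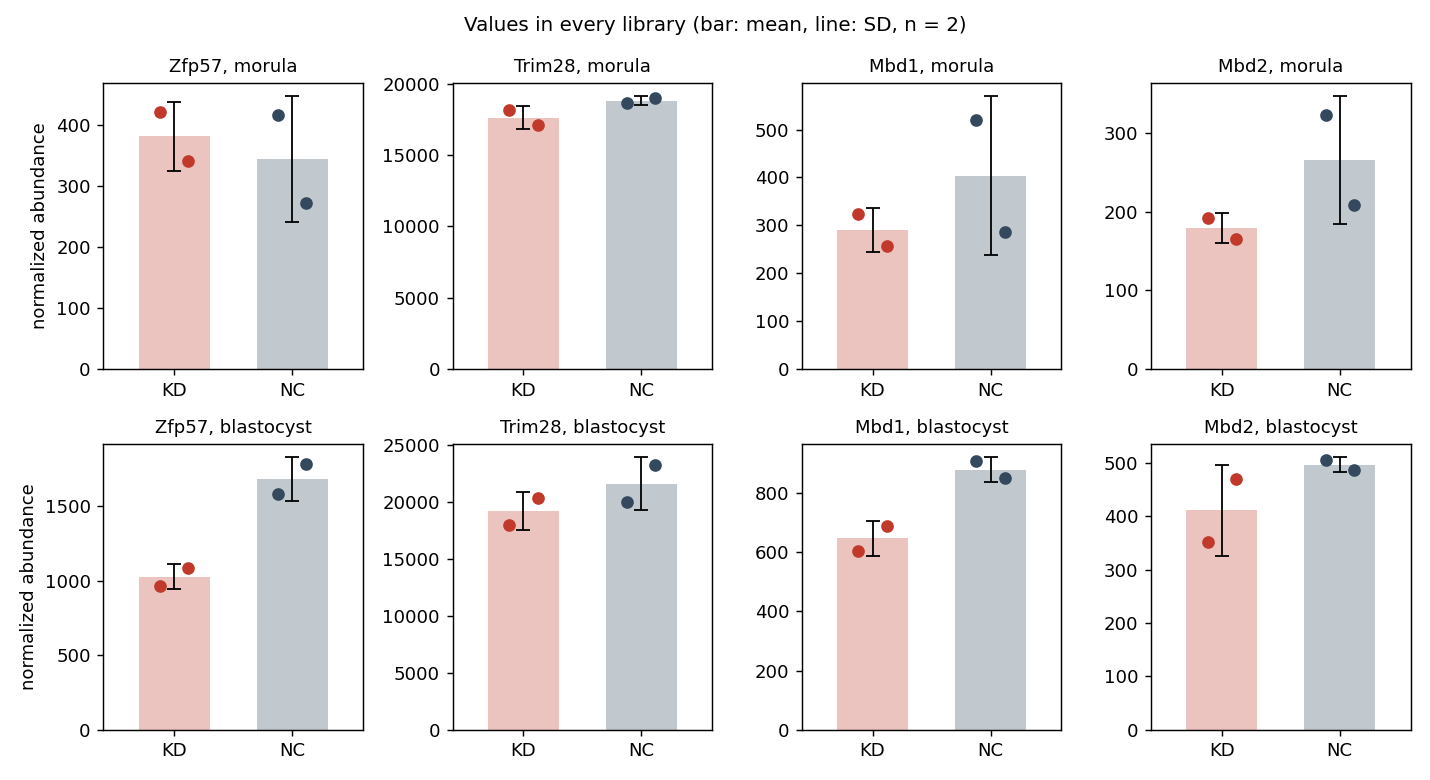
Normalized abundance (y axis, from 0) of Zfp57, Trim28, Mbd1 and Mbd2 in every library of KD and NC morulae (top) and blastocysts (bottom). Points are libraries, with replicate 1 on the left, bars are means and lines are SD (n = 2). The clearest gap is in Zfp57 of blastocysts, with 965 and 1085 in KD and 1577 and 1782 in NC.

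Some markers of the inner cell mass and trophectoderm also lay apart between KD and NC blastocysts. Of 10 embryo markers, 4 were higher and 2 lower in KD blastocysts without overlap (24.6% and 24.9% of tested genes). In morulae 0 were higher and 3 lower (20.7% and 21.2% of tested genes). Sox2, a factor of the inner cell mass, was 1266 and 1456 in KD and 1636 and 2215 in NC blastocysts (log2 fold change -0.49, limma adjusted p = 0.213). Pou5f1 was 20001 and 19699 in KD and 21629 and 21609 in NC (-0.12, limma adjusted p = 0.416), while Nanog had a log2 fold change of -0.01. The trophectoderm factors Cdx2 (0.20) and Gata3 (0.33) and the keratins Krt8 (0.25) and Krt18 (0.29) were higher in each KD blastocyst library than in either NC library, without passing. Other markers of the list overlapped in blastocysts: Eomes was 1311 and 3610 in KD and 1364 and 2148 in NC, Tfap2c had a log2 fold change of -0.10 and Gata6 of -0.15. In morulae Krt8 (-0.36), Krt18 (-0.43) and Tfap2c (-0.31) were lower in KD without overlap, while Gata3 (0.41), Cdx2 (0.10) and the other 5 markers overlapped. Over all 10 embryo markers the sum was 135530 to 150810 in KD and 128220 to 130480 in NC blastocysts, and 68137 to 75574 in KD and 73198 to 76723 in NC morulae. The part of cell makeup in the Zfp57 difference was not tested.

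Trim28, the scaffold that ZFP57 recruits, was the most abundant of the 4 genes and differed least. It was 18177 and 17064 in KD morulae, against 18612 and 19016 in NC morulae. Each KD library was below each NC library there, by a small amount (log2 fold change -0.10, SE 0.10, 95% interval -0.34 to 0.15, limma adjusted p = 0.792). In blastocysts it was 18014 and 20368 in KD, against 19965 and 23240 in NC, and the groups overlapped. This gave a log2 fold change of -0.17 (SE 0.10, 95% interval -0.42 to 0.08, limma adjusted p = 0.445). As folds, the interval of the KD level was 0.792 to 1.11 times NC in morulae and 0.749 to 1.06 times NC in blastocysts. In blastocysts the log2 fold change was -0.06 without NC replicate 2, -0.08 without KD replicate 1, -0.28 without NC replicate 1 and -0.26 without KD replicate 2. In morulae it was -0.05 without KD replicate 2. The opposite-strand neighbour Zbtb45 was 678 and 514 in KD and 667 and 527 in NC morulae, and 997 and 1120 in KD and 1125 and 1140 in NC blastocysts.

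Mbd1 (ENSMUSG00000024561, chromosome 18, 74267605 to 74282732), the methyl-CpG reader that works with SETDB1, was lower in KD blastocysts. It was 605 and 687 in KD blastocysts, against 907 and 850 in NC blastocysts, with no overlap. The mean was 646 ± 58.6 in KD and 878 ± 41.0 in NC (SD, n = 2), a KD level 0.735 times that of NC. The log2 fold change was -0.44 (SE 0.14, 95% interval -0.78 to -0.11) and did not pass over all genes (limma adjusted p = 0.188, unadjusted p = 0.0166). It was between -0.54 and -0.35 with each library left out in turn. In morulae Mbd1 was 323 and 257 in KD, against 521 and 286 in NC, and the groups overlapped. The log2 fold change of -0.42 (SE 0.33, 95% interval -1.20 to 0.36, limma adjusted p = 0.709) rested on NC replicate 1. It was 0.01 without that library, -0.85 without NC replicate 2 and -0.26 without KD replicate 2.

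Mbd2 (ENSMUSG00000024513, chromosome 18, 70568189 to 70626131), the reader found in NuRD, was the least abundant of the 4 genes before any account of length. It was 192 and 165 in KD morulae, against 323 and 208 in NC morulae, with no overlap but with NC libraries far apart. Its log2 fold change there was -0.54 (SE 0.30, 95% interval -1.26 to 0.18, limma adjusted p = 0.589). It was -0.22 without NC replicate 1 and -0.85 without NC replicate 2. In blastocysts Mbd2 was 351 and 470 in KD, against 506 and 487 in NC, and the upper KD library lay just under NC. On the log2 scale the difference was -0.29 (SE 0.19, 95% interval -0.75 to 0.17, limma adjusted p = 0.479), and it was -0.08 without KD replicate 1 and -0.50 without KD replicate 2.

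Counted together, 0 of 4 genes passed limma's threshold, an adjusted p under 0.05, at either stage. Over all tested genes 0.00746% passed in morulae, all lower, and 0.0879% in blastocysts, with 0.0366% higher and 0.0513% lower. At an unadjusted p under 0.05 there were 0 of 4 in morulae, where 10.4% of genes reached it and 5.22% were lower. There were 2 of 4 in blastocysts, Zfp57 and Mbd1, both lower, where 17.6% of genes reached it and 8.73% were lower. KD libraries lay below NC libraries without overlap for 2 of 4 in morulae (21.2% of tested genes) and for 3 of 4 in blastocysts (24.9% of tested genes). They lay above NC libraries for 0 of 4 at either stage (20.7% of tested genes in morulae and 24.6% in blastocysts). The log2 fold change was below 0 for 3 of 4 in morulae (50.8% of tested genes) and 4 of 4 in blastocysts (49.7% of tested genes). The median log2 fold change was -0.26 over the 4 genes and -0.01 over all genes in morulae, and -0.37 and 0.00168 in blastocysts. The differences between stages were -0.07 for Trim28 (95% interval -0.41 to 0.26), -0.02 for Mbd1 (-0.90 to 0.85) and 0.25 for Mbd2 (-0.58 to 1.08), none passing (limma adjusted p = 0.964, 0.998 and 0.9504).

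**Figure D2:**
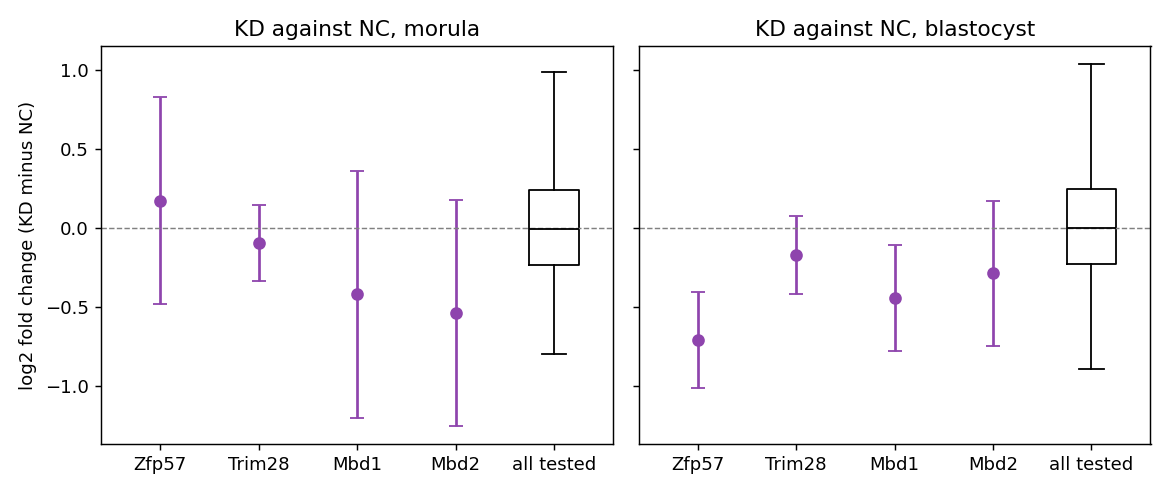
Log2 fold change, KD minus NC on log2(value + 1), of the 4 genes in morulae (left) and blastocysts (right). Points are estimates and lines 95% intervals from limma, and the box shows quartiles of all tested genes with whiskers at the 5th and 95th percentiles. In blastocysts the intervals of Zfp57 (-1.01 to -0.41) and Mbd1 (-0.78 to -0.11) lie below 0.

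The replicates of NC morulae were far apart for 3 of the 4 genes. NC replicate 1 was 1.54 times replicate 2 for Zfp57, 1.82 times for Mbd1 and 1.55 times for Mbd2, but Trim28 differed 1.02-fold. The log2 difference between these replicates was larger than that of 75.7% of tested genes for Zfp57, 85% for Mbd1 and 76.3% for Mbd2. Over all tested genes the median absolute log2 difference between replicates was 0.258 in KD and 0.289 in NC morulae, and 0.212 in KD and 0.217 in NC blastocysts. Among blastocyst replicates the members differed at most 1.34-fold, for Mbd2 in KD.

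**Figure D3:**
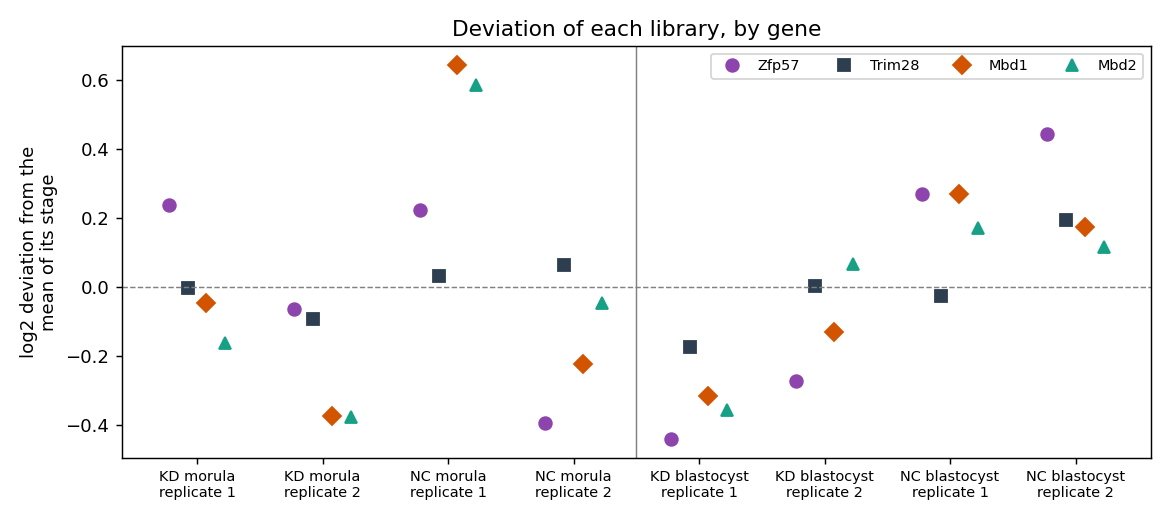
Deviation of each library from the mean of its stage, in log2 units of value + 1, for the 4 genes. NC morula replicate 1 is highest for Mbd1 (0.64) and Mbd2 (0.58), and in blastocysts each KD library is below 0 for Zfp57 and Mbd1.

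Levels of the 4 genes were compared per kb of mean annotated transcript length, since longer transcripts give more reads. In KD blastocysts Trim28 had 19010 ± 1648, Zfp57 1009 ± 83.0, Mbd2 396 ± 81.4 and Mbd1 301 ± 27.3 units of abundance per kb. In NC blastocysts these levels were 21400 ± 2293, 1652 ± 143, 479 ± 12.9 and 409 ± 19.09, in the same order. In KD morulae Trim28 had 17455 ± 779, Zfp57 376 ± 55.6, Mbd2 172 ± 18.3 and Mbd1 135 ± 21.6, and in NC morulae 18637 ± 283, 339 ± 101, 256 ± 78.0 and 188 ± 77.4 (SD, n = 2 throughout). In NC morulae the ranges of 1 SD around Zfp57, Mbd2 and Mbd1 overlapped. So did those of Mbd2 and Mbd1 in KD morulae and KD blastocysts. Within single libraries the order held. Zfp57, Mbd2 and Mbd1 were 411, 311 and 243 in NC morula replicate 1, and 267, 201 and 133 in replicate 2. Mbd2 was also above Mbd1 in each KD library. The gaps between genes, and the order of Zfp57 and Mbd2 in NC morulae, also depend on the length used. Per kb of the longest annotated transcript, NC blastocysts had 6657 for Trim28, 647 for Zfp57, 254 for Mbd2 and 224 for Mbd1. On that measure NC morulae had 136 ± 41.4 for Mbd2 and 133 ± 39.6 for Zfp57.

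Rank among all tested genes of a library does not depend on how a table was scaled. Trim28 stood at percentile 99.4 in each KD and NC morula library, and at 99.3 to 99.4 in KD and 99.5 to 99.6 in NC blastocysts. Zfp57 stood at percentile 68.3 to 71.1 in KD and 78.9 to 81.7 in NC blastocysts, against 49.4 to 53.7 in KD and 45.4 to 52.6 in NC morulae. Its place was therefore higher in blastocyst than in morula libraries of either group. Mbd1 stood at 57.6 to 60.3 in KD and 65.0 to 66.7 in NC blastocysts, and at 43.9 to 48.1 in KD and 46.4 to 57.1 in NC morulae. Mbd2 stood at 45.8 to 51.7 in KD and 52.4 to 53.1 in NC blastocysts, and at 36.4 to 38.8 in KD and 40.8 to 47.7 in NC morulae. Each table was scaled on its own, so these places are described without a test.

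Partners of the 4 proteins and genes they act on were read from the same fits, as 7 lists with 102 distinct genes. None of the 85 genes tested in morulae and 81 in blastocysts passed over all genes in limma, with 6 and 14 at an unadjusted p under 0.05, a cut that 10.4% of all genes reached in morulae and 17.6% in blastocysts. These shares are the background for each count of list genes given here. Among 12 partners of the ZFP57 and TRIM28 complex none had an unadjusted p under 0.05 at either stage. Their medians were 0.07 in morulae and 0.05 in blastocysts on the log2 scale, and all values lay between -0.11 and 0.27. With a library left out the medians ranged from -0.01 to 0.11 and from -0.01 to 0.07. They include Setdb1, which deposits H3K9 methylation, at 1797 and 1773 in KD and 1850 and 1909 in NC blastocysts, and Cbx5 (HP1 alpha), at 4529 and 5279 in KD and 4003 and 4662 in NC blastocysts. Zfp445, the other zinc finger protein known to guard imprints, was 1557 and 1478 in KD and 1427 and 1106 in NC morulae (log2 fold change 0.27, limma adjusted p = 0.635), and 0.09 without NC replicate 2 or 0.46 without NC replicate 1. Smarcad1, a remodeler that binds TRIM28 (0.17 in morulae), and Trim33, a TRIM28 relative (0.20 in blastocysts), did not pass. Smarcad1 was 0.05 without KD replicate 1, 0.29 without KD replicate 2 and 0.11 without NC replicate 1. Trim33 was 0.03 without KD replicate 1, 0.37 without KD replicate 2, 0.35 without NC replicate 1 and 0.05 without NC replicate 2.

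The 13 genes that maintain, write or erase DNA methylation held none with an unadjusted p under 0.05 in morulae and 4 in blastocysts, 2 higher and 2 lower, where 17.6% of all genes reached it and 8.73% were lower. Uhrf1, which brings DNMT1 to hemimethylated DNA, was 4819 and 3976 in KD blastocysts, against 6563 and 6320 in NC blastocysts (log2 fold change -0.56, SE 0.11, limma adjusted p = 0.101). Dnmt3a, a de novo methyltransferase, was 4125 and 3582 in KD, against 2808 and 2374 in NC blastocysts (0.57, SE 0.12, limma adjusted p = 0.110). Smchd1, a silencing factor of the inactive X and some imprinted genes, had a log2 fold change of -0.55, and Dnmt3l, a cofactor of DNMT3A, of 0.44, neither passing. In morulae the smallest p belonged to Tet1, a demethylating dioxygenase (0.37), and Dnmt3l (0.28). The list medians were -0.01 in morulae and -0.06 in blastocysts, and with a library left out 0.01 to 0.08 and -0.10 to -0.06.

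A further list joined other methyl-CpG readers with relatives of the MBD family, not all of which are known to bind methylated CpG. Of its 11 genes 10 were tested at each stage. Uhrf2, a relative of UHRF1, was 83.3 and 132 in KD blastocysts, against 265 and 296 in NC blastocysts (log2 fold change -1.41, SE 0.29, limma adjusted p = 0.104). It was 31.3 and 26.8 in KD and 81.4 and 24.8 in NC morulae, where the groups overlapped. Mbd6 was higher in each KD library than in either NC library at both stages, with log2 fold changes of 0.40 in morulae and 0.36 in blastocysts, neither passing. In blastocysts it was 0.10 without NC replicate 2 and 0.63 without NC replicate 1, and in morulae 0.25 without NC replicate 2. Mbd3l2 was 103 and 145 in KD and 41.2 and 90.0 in NC morulae. Near-identical gene copies may share its reads, and its level is uncertain. List medians of -0.02 in morulae and -0.13 in blastocysts had no stable sign: with a library left out they ranged from -0.02 to 0.26 and from -0.20 to 0.08, highest without KD morula replicate 2 and KD blastocyst replicate 1, and the first was 0.17 with the filter at a mean of 100.

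NuRD, the deacetylase and remodeling complex around MBD2, had 13 tested genes. Of these Mbd3, of the MBD family and also in the list of readers, was 2958 and 2488 in KD and 2405 and 2401 in NC morulae. In blastocysts Mbd3 was 3481 and 3676 in KD and 3442 and 3547 in NC. Gatad2a, the subunit that bridges the MBD protein and the CHD remodeler, was 3155 and 3329 in KD morulae, against 4437 and 4213 in NC morulae (log2 fold change -0.42, limma adjusted p = 0.386). In blastocysts it was 4055 and 3560 in KD, against 5362 and 4629 in NC (-0.39, limma adjusted p = 0.168). The groups did not overlap at either stage. Chd3, an alternative remodeler of the complex, was 507 and 720 in KD and 412 and 367 in NC blastocysts (0.64, limma adjusted p = 0.199), and the histone-binding Rbbp4 had a log2 fold change of -0.15 in morulae. NuRD medians were -0.04 in morulae and -0.10 in blastocysts, and with a library left out -0.08 to 0.05 and -0.13 to -0.10. Of 5 partners of MBD1, none had an unadjusted p under 0.05. The smallest p belonged to Atf7ip2 (-0.38) and Chaf1a (0.09) in morulae and to Suv39h1 (-0.22) and Atf7ip2 (-0.42) in blastocysts. The sign of 2 of these turned with 1 library left out, of Chaf1a to -0.06 without KD replicate 1 and of Atf7ip2 in blastocysts to 0.16 without NC replicate 2.

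Imprinted genes, whose methylated control regions ZFP57 and TRIM28 guard, had 25 of 38 members tested in morulae and 23 in blastocysts. The log2 fold change was above 0 for 18 and below 0 for 7 in morulae, with a median of 0.24, and above 0 for 16 and below 0 for 7 in blastocysts, with a median of 0.19. Medians of all genes were -0.01 and 0.00168, and 50.8% and 49.7% of all tested genes were below 0. The filter takes the mean over both groups, so a low gene can pass through the group where it is higher. In morulae this was so for Rasgrf1 (means of 15.5 in KD and 6.35 in NC) and Plagl1 (9.86 and 16.9), in opposite directions. In morulae the imprinted median was 0.10 without NC replicate 2, 0.13 with all 8 libraries in 1 fit and 0.07 with the filter at a mean of 100, and in blastocysts it was 0.13 without NC replicate 1. At an unadjusted p under 0.05 there were 1 higher and 1 lower in morulae (10.4% of all genes), and 4 higher and 1 lower in blastocysts (17.6% of all genes). Inpp5f, a phosphatase gene with an imprinted variant, was 235 and 303 in KD morulae, against 138 and 153 in NC morulae (log2 fold change 0.87, limma adjusted p = 0.402). In blastocysts it was 365 and 519 in KD, against 263 and 249 in NC (0.76, limma adjusted p = 0.168). Plagl1, a paternally expressed zinc finger gene, was 118 and 145 in KD blastocysts, against 52.5 and 27.4 in NC blastocysts (1.76, SE 0.42, limma adjusted p = 0.124). In morulae Plagl1 had a log2 fold change of -0.85. Cdkn1c, a maternally expressed cell cycle inhibitor, was 63.1 and 65.5 in KD and 92.6 and 213 in NC morulae (-1.12, limma adjusted p = 0.480), or -0.52 without NC replicate 2 and -1.71 without NC replicate 1. Zdbf2, a paternally expressed gene, was 122 and 110 in KD and 168 and 273 in NC blastocysts (-0.88, limma adjusted p = 0.215). Impact (0.55) and Usp29 (1.08) were the other 2 higher in blastocysts. RNA levels do not show which parental copy was read, and DNA methylation was not measured in the files used here.

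Germline genes, which are held silent by promoter methylation in somatic cells, had 10 of 13 members tested in morulae and 8 in blastocysts. At an unadjusted p under 0.05 there were 2 higher and 1 lower in morulae (10.4% of all genes), and 1 higher and 1 lower in blastocysts (17.6% of all genes). Ddx4, a germ cell RNA helicase, was 180 and 237 in KD morulae, against 55.5 and 112 in NC morulae (log2 fold change 1.38, limma adjusted p = 0.402). Sycp3, of the synaptonemal complex, was 208 and 280 in KD morulae, against 404 and 451 in NC morulae (-0.82, limma adjusted p = 0.402). In blastocysts Sycp3 was 284 and 204 in KD and 264 and 219 in NC, with overlap. Tex19.1, a germline and placental gene, was 2771 and 2415 in KD blastocysts, against 2199 and 1652 in NC blastocysts (0.44, limma adjusted p = 0.224), and in morulae its log2 fold change was 0.41. Asz1 was 14.4 and 17.5 in KD and 31.4 and 111 in NC blastocysts. Germline medians of -0.43 in morulae and -0.07 in blastocysts depended on single libraries. In morulae the median was 0.18 without KD replicate 1, -0.72 without KD replicate 2, -0.06 without NC replicate 2 and -0.06 with the filter at a mean of 100. In blastocysts it ranged from -0.32 without KD replicate 1 to 0.29 without NC replicate 2, and it was 0.25 without KD replicate 2 and -0.30 without NC replicate 1.

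**Figure D4:**
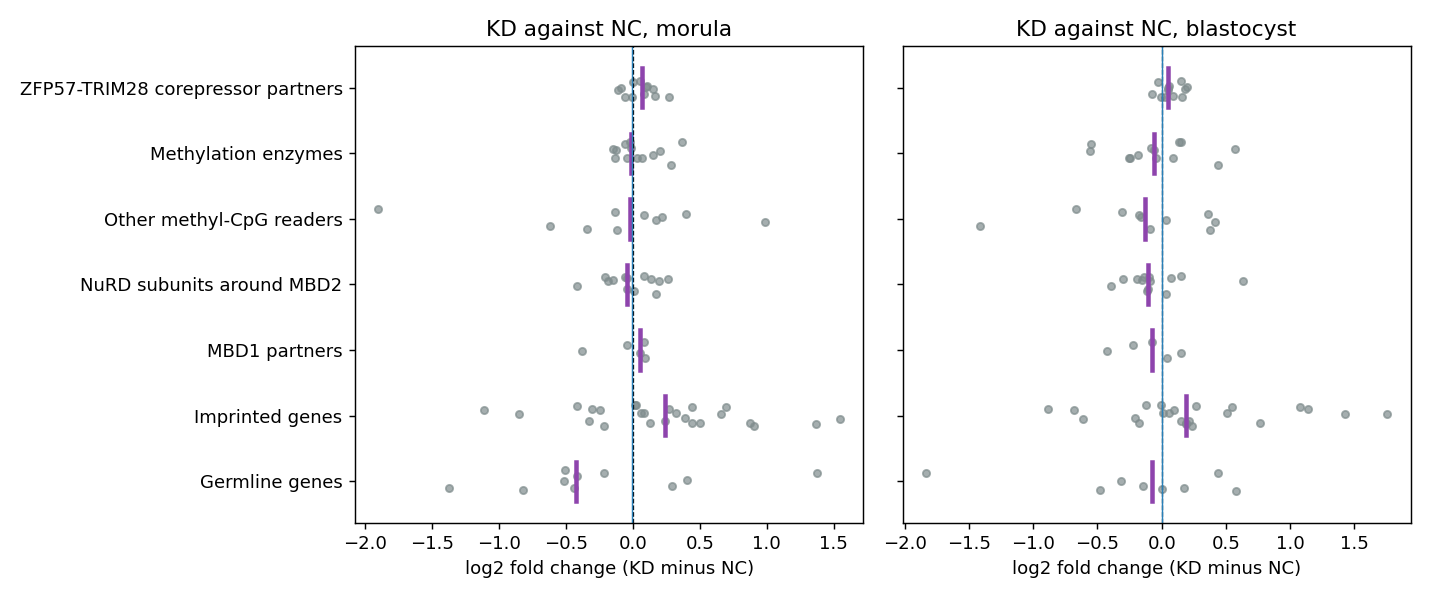
Log2 fold change, KD minus NC on log2(value + 1), of each tested gene (grey points) in 7 lists, in morulae (left) and blastocysts (right). Purple bars are list medians, the blue line is the median of all tested genes and the dashed line is 0. The imprinted genes have medians of 0.24 in morulae (0.10 without NC replicate 2 and 0.07 with the filter at a mean of 100) and 0.19 in blastocysts (0.13 without NC replicate 1), and partners of ZFP57 and TRIM28 lie between -0.11 and 0.27.

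The genes most like each member were found by Pearson correlation over the 8 libraries, on log2(value + 1) with the mean of each stage taken out. Libraries of a group share their knockdown state, and 11691 genes were ranked on 8 points. There were 75 genes at 0.9 or more for Zfp57, 49 for Trim28, 141 for Mbd1 and 126 for Mbd2. Those most like Zfp57 were Cct8 (r = 0.986), Naprt (0.970) and Ndufb9 (0.969). For Trim28 they were Rpl36al (0.976), Trp53i13 (0.962) and Mettl4 (0.946), for Mbd1 Ext2 (0.997), Timmdc1 (0.981) and Arl14epl (0.978), and for Mbd2 Akr1a1 (0.990), E2f5 (0.985) and Asb1 (0.984). Spearman's rho was at least 0.881 for these 12 genes, and without the 2 libraries farthest from each member's median r was 0.856 to 0.997. The genes were picked for a high r on these same libraries, so high values here follow from that choice.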

How the data were processed

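Gene-level RNA was measured in 8 libraries, grouped by their titles. The labels do not tell whether a group's libraries stem from different litters, so each p-value reflects the spread among these libraries alone, possibly a technical one. For each stage the authors deposited 1 table with a normalized signal for every gene. Salmon 0.14.1, DESeq2 and the mm10 build are named, per the submitters' processing notes, without their roles. Sums of the 4 columns in a table are close to equal, and values were compared only within a table. Per the labels' protocols, libraries were made with 12 to 15 PCR cycles and read as pairs of 150 bases; whether strand was kept is not given. Among genes seen in a single library, 95.05% to 100% had values at whole multiples of a step (tolerance 0.01). Dividing a column's sum by its step gave the depth. Whether a step is a read or a pair is not given, and reads assigned to no listed gene are left out. No count test was run, since the values are not counts, and depth gives no interval for single values.

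Of the Ensembl IDs, 98.9% in each table matched a symbol. Coordinates and transcript lengths come from GENCODE vM21 (mm10). Genes with a mean of at least 10 over the 4 libraries, 13404 in morulae and 13651 in blastocysts, were tested as log2(value + 1) in limma 3.58.1 (R 4.3.3, lmFit, then eBayes with its trend option) for KD minus NC, with Benjamini-Hochberg adjustment over all genes at 0.05. Fold changes on this scale understate those of low genes. The stage difference came from 1 fit of 8 libraries over 12875 genes. Simulated tables with 200 altered genes were run for the fit of each stage, but not for that of the stage difference. Their spread was smoothed over level and their changes were larger than those of the members. They do not show whether changes of the members' size would pass. A permutation test of 2 against 2 libraries cannot reach 0.05, so none was run. No set test was run.

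The members and lists were chosen with earlier results of these data known. The text names the members, Smarca5, the 2 genes of smallest p per list and stage, and the 3 most correlated genes per member. Smchd1, Zdbf2, Impact and Usp29, Dnmt3l in blastocysts, Setdb1, Mbd3, Rasgrf1 and the marker genes were named after their values were seen. Alternatives changed the pseudocount (0.1 and 10), the filter (none and 100), the scaling, the variance trend, the libraries and the replicate block.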

Additional observations from a re-analysis of the deposited data

Results flagged for a closer look

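Uhrf1 in KD libraries lay on opposite sides of NC at the 2 stages, without passing at either (log2 fold change 0.20, 95% interval -0.15 to 0.55, limma adjusted p = 0.682 in morulae, and -0.56, limma adjusted p = 0.101 in blastocysts). It was 3329 and 3100 in KD morulae against 3088 and 2531 in NC morulae, with each KD library above each NC library, and in blastocysts each KD library was below each NC library. The change in blastocysts minus that in morulae was -0.76 on the log2 scale (SE 0.19, 95% interval -1.18 to -0.33), which did not pass over all genes (limma adjusted p = 0.834, unadjusted p = 0.00316). For this contrast 5.34% of tested genes had an unadjusted p under 0.05. Among named list genes, Dnmt3a differed the other way, by 0.73 (SE 0.19, limma adjusted p = 0.834, unadjusted p = 0.00463). So did Plagl1 (2.60) and Sycp3 (0.82), with limma unadjusted p = 0.0386 and 0.0474, neither passing.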

How the results depend on the processing

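No member passed the threshold under any alternative except Zfp57 in blastocysts with the replicate block (log2 fold change -0.71, limma adjusted p = 0.00637). The labels give no pairing behind the replicate numbers, and deviations of same-numbered libraries correlated across genes at 0.297 in morulae and 0.146 in blastocysts. That block raised the genes called to 892 from 1 in morulae and to 1208 from 12 in blastocysts, and to 1 from 0 for the stage difference. It called 5 and 11 list genes in morulae and blastocysts, against none without it. Without the variance trend 0 genes were called at either stage. All 8 libraries in 1 fit called 18 genes in morulae, no filter called 27 in blastocysts, and a pseudocount of 0.1 called 2 for the stage difference. With a library left out, 1 to 3 genes were called in blastocysts and 0 to 2 for the difference.

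In those smaller fits, whose lone library borrows the spread of the other group, log2 fold changes in morulae ranged from -0.85 to 0.012 for Mbd1 and from -0.14 to 0.48 for Zfp57. The stage difference ranged from -0.46 to 0.41 for Mbd1, -0.064 to 0.56 for Mbd2 and -0.18 to 0.035 for Trim28; for Mbd1 it was 0.017 after quantile normalization. Atf7ip2 in blastocysts ranged from -1.004 to 0.16 and Chaf1a in morulae from -0.062 to 0.24. Without changing sign, Tet1 (0.18 to 0.56), Ddx4 (0.88 to 1.88) and Mbd6 (0.25 to 0.54) in morulae and Chd3 (0.38 to 0.89), Suv39h1 (-0.30 to -0.14) and Tex19.1 (0.23 to 0.65) in blastocysts also moved. The cause was not tested. Quantile normalization aside for Mbd1, the other alternatives kept the direction of the members' changes. With 2 libraries per group, differences of the size seen for Mbd1 and Mbd2 in morulae were not separable from replicate spread, and low genes such as Plagl1 in morulae (means of 9.86 in KD and 16.9 in NC) rest on few reads.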
